A study of Mus musculus with 2 samples.

Results

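Fibroblast growth factors (FGFs) are secreted signals that bind receptor tyrosine kinases (FGFRs) on nearby cells, with heparan sulphate as co-factor, and activate the Ras-MAP kinase, PI3 kinase and phospholipase C gamma pathways. In the embryonic forebrain, ligands of the Fgf8 subfamily come from a signalling centre at the rostral midline and pattern the cortex along its rostral to caudal axis, while the receptors are expressed in progenitors of the ventricular zone, where FGF signalling sustains their proliferation. 5 genes of this system were followed here in cortex that lacks Pax6, a transcription factor of cortical progenitors: the ligand genes Fgf15 and Fgf17 and the receptor genes Fgfr1, Fgfr2 and Fgfr3.

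The members were chosen by name, as every probe set whose single gene symbol was 1 of these 5. This gave 8 of the 12488 probe sets on the array, for 5 of 8251 genes: 1 probe set each for Fgf15, Fgf17 and Fgfr1, 3 for Fgfr2 and 2 for Fgfr3. Total RNA came from NMRI mouse embryos at E14.5, from cerebral cortex that was either wild type or homozygous for a Pax6 mutation (Pax6-/-); the labels name neither the allele nor any further genetic change. Each genotype is represented by 1 Affymetrix expression array. RNA of 3 embryos per genotype is mentioned in the design text, and whether it was pooled is not stated in the sources. The study set out to find genes downstream of Pax6, and the comparison below asks how these FGF genes differed between the genotypes.

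With 1 array per genotype, differences have no replicate check and are given with no p-value. The values are MAS5 signals, which are intensities on a linear scale, 1 per probe set and array. A log2 ratio is log2(mutant signal + 81.5) minus log2(wild type signal + 81.5), less 0.05, the median over probe sets above a mean signal of about 166. The pseudocount of 81.5 understates the difference of dim probe sets, and folds below are on this scale unless called a quotient of signals. As an error, the difference between the log2 ratios of 2 probe sets of the same gene gave a technical spread of 0.72 per probe set for pairs above that filter with mean signals below 471, 0.54 for those up to 828 and 0.38 for brighter ones. Pairs below the filter gave 0.72. This spread holds nothing of the variation between embryos. Signals of different probe sets are not compared as transcript levels. In whole-tissue RNA, fewer cells of a type and less RNA per cell cannot be told apart.

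Of the members, the ligand Fgf15 and the receptor Fgfr1 were at least 2-fold lower in the Pax6-/- cortex, and no gene above the filter was at least 2-fold higher by its brightest probe set. Fgf17 lay on the higher side, by about 1 technical spread. The brightest Fgfr2 probe set was close to equal on both arrays, and the remaining Fgfr2 probe sets lay on the opposite side. Fgfr3 was dim on both arrays. Ligands and receptors therefore did not separate: each class held 1 gene past 2-fold lower and probe sets on the higher side. Among the 4 member genes above the filter, 2 were past 2-fold on the lower side and 0 on the higher side. Of these 2, Fgf15 passed the filter through the wild type array, where it was higher. Over all 5587 genes above the filter, 5.48% were at least 2-fold lower, 5.05% at least 2-fold higher and 10.5% past 2-fold either way, and the higher share of those past 2-fold, 48.0%, was 36.5% after loess scaling. By probe set, 2 of the 8 were past 2-fold lower and 1 past 2-fold higher, against 5.53% and 7.01% of all 10833 probe sets with 1 gene symbol, or 12.5% either way.

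**Figure D1:**
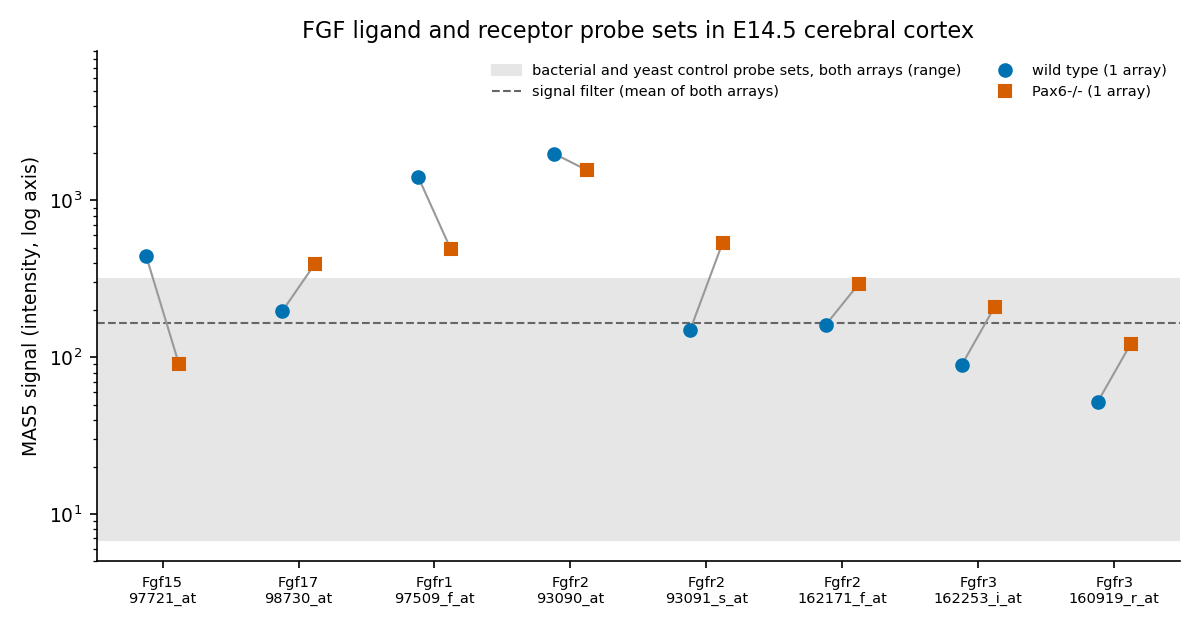
MAS5 signal of the 8 FGF probe sets for wild type (circles) and Pax6-/- (squares), 1 array each, on a log axis; the dashed line is the signal filter of about 166 and the grey band the range of 19 bacterial and yeast control probe sets over both arrays. Fgf15 (441 to 91.0) and Fgfr1 (1414 to 489) slope down, the brightest Fgfr2 probe set is nearly level, and the remaining 5 probe sets slope up.

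Fgf15 encodes the mouse counterpart of human FGF19. In the embryo it is expressed in forebrain and midbrain neuroepithelium, where it is known to favour the exit of progenitors from the cycle and their differentiation, whereas in the adult it acts as a hormone from the gut. Its probe set, 97721_at, read 441 in wild type tissue and 91.0 in the mutant. The mutant signal lay below the filter level and within the range of the bacterial and yeast control probe sets, which have no mouse target and spanned 6.8 to 275 in wild type and 13.2 to 316 in the mutant; the wild type signal lay above that range. The log2 ratio was −1.65, a 3.13-fold difference against a technical spread of 0.72, and the plain quotient of signals was 4.85. Only 57 of the 5587 genes above the filter had a lower ratio. Fgf15 is among those 5587 genes through its wild type signal, the array where it was higher. The ratio ran from −2.33 with no pseudocount to −1.04 with a pseudocount at the 50th percentile, and was past 2-fold lower in all 6 scaling and pseudocount settings. With a single probe set, Fgf15 has no second measurement on these arrays.

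Fgf17, a member of the Fgf8 subfamily known from the rostral forebrain midline and the midbrain-hindbrain boundary, where it supports frontal cortex and cerebellar vermis, lay on the other side. Its only probe set, 98730_at, read 197 in wild type but 393 in the mutant, so the mutant held the higher value and the wild type value lay within the control range. The log2 ratio was 0.73, a 1.65-fold difference and 1.01 times the technical spread of 0.72. The ratio stayed on the higher side in all 6 settings, from 0.48 to 0.95, and reached 2-fold in 0 of them. The Fgf15 and Fgf17 ratios bracketed the bulk of genes unequally: 560 of the 5587 genes above the filter had a higher ratio than Fgf17, and the central 90% of those genes lay between −1.05 and 1.0.

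Fgfr1 encodes a receptor of broad expression in neuroepithelium, which is needed for the growth of the hippocampal and frontal cortical primordium. Probe set 97509_f_at read 1414 in wild type but 489 in the mutant, both above the range of the control probe sets. The log2 ratio was −1.44, a 2.71-fold difference, at 3.77 times the technical spread of 0.38 for probe sets this bright. Its mean signal lay only just above the bound of 828, below which the spread is 0.54, so the multiple depends on that bound. That made Fgfr1 the member farthest from 0 in units of its spread, with Fgf15 at 2.28. In total, 106 genes above the filter had a lower ratio. All 6 settings placed it past 2-fold, between −1.58 and −1.20. The letter f in its name is Affymetrix's mark for probes shared within a sequence family, and no unmarked Fgfr1 probe set is among the members, so how much of this signal comes from related transcripts was not tested.

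Fgfr2, the receptor whose alternatively spliced forms bind different ligands, was measured by 3 probe sets, and they did not agree in sign. The unmarked probe set 93090_at was bright and read 1987 and 1562 (wild type, then mutant), a log2 ratio of −0.38 that equals 0.99 of its technical spread. Probe set 93091_s_at, whose letter s marks probes shared by similar transcripts, read 149 and 539, a log2 ratio of 1.39 or 2.61-fold higher in the mutant. Probe set 162171_f_at read 162 and 293, a log2 ratio of 0.58. The wild type signals of these dimmer probe sets lay just below the filter level, so both passed the filter through the mutant array. The 93090_at and 93091_s_at ratios differed by 1.76, and among 894 genes for which at least 2 probe sets passed the filter, 5.03% had brightest pairs at least that far apart. The difference between 93090_at and 162171_f_at was 0.95, which 20.7% of those pairs reached. The brightest probe set ranged from −0.40 to −0.22 over the 6 settings, 162171_f_at from 0.36 to 0.81 and 93091_s_at from 0.93 to 1.81, so no setting brought the signs together. Taken as the mean of its probe sets, Fgfr2 would be at 0.53 in place of −0.38. Disagreement of this kind was common on these arrays: the brightest 2 probe sets had the same sign in 54.1% of those 894 genes. No direction is therefore given for Fgfr2.

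Fgfr3, a receptor whose expression in the cortical ventricular zone is known to be graded, highest caudally, had both of its probe sets below the filter. Probe set 162253_i_at read 89.9 (wild type) and 209 (mutant), and 160919_r_at read 52.2 and 121. Both were higher on the mutant array, by quotients of signals of 2.33 and 2.32, and all 4 signals lay within the control range. On the log2 scale with the pseudocount the ratios were 0.72 and 0.55, each within 1 technical spread of 0. They differed from each other by 0.16, less than in 85.5% of 372 pairs below the filter. Dim genes as a whole leaned the same way: the 2664 genes below the filter had a median log2 ratio of 0.11, with 40.8% lower in the mutant, against −0.02 and 51.6% above the filter. The part of that lean in the Fgfr3 values was not tested. The letters i and r mark probe sets that did not meet all of Affymetrix's design rules.

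**Figure D2:**
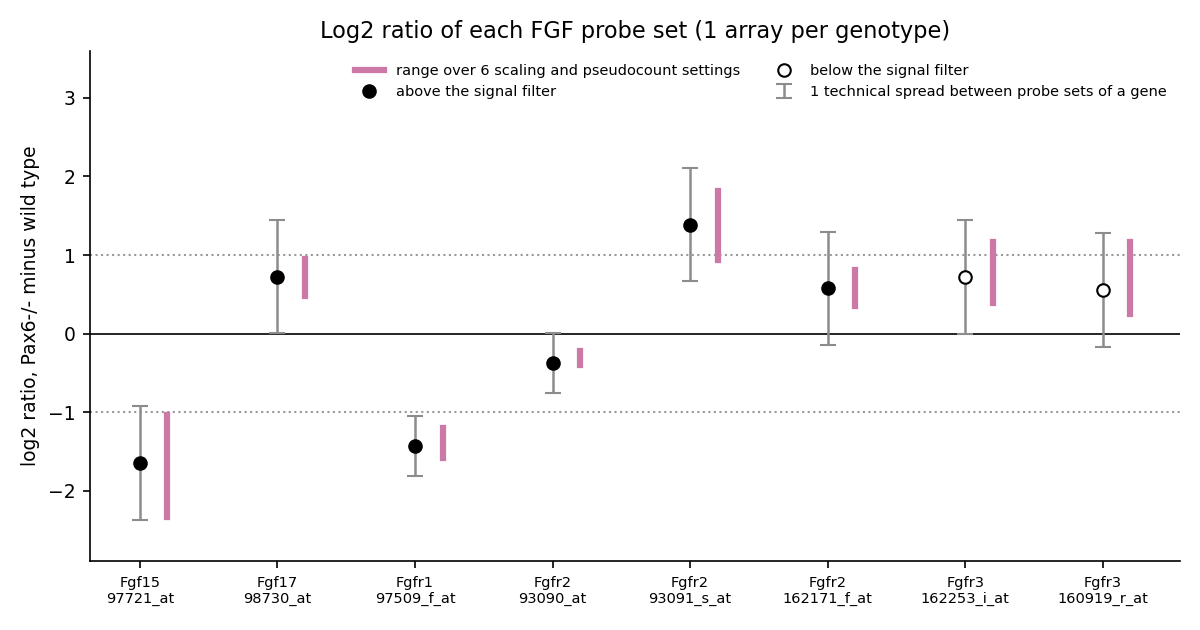
Log2 ratio (Pax6-/- minus wild type) of each FGF probe set, filled where above the signal filter; grey bars are 1 technical spread between probe sets of a gene, pink lines the range over 6 scaling and pseudocount settings, and dotted lines 2-fold. Fgf15 (−1.65) and Fgfr1 (−1.44) lie past 2-fold lower with their whole ranges, and the Fgfr2 probe sets lie on both sides of 0.

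Set against each other by brightest probe set, ligands and receptors formed no common order. Fgf15 was lower than Fgfr3 by a difference of −2.36 in log2 ratio, with a combined technical spread of 1.02. Its difference from Fgfr1, at −0.21, was inside the spread of 0.82. Fgf17 exceeded Fgfr1 by 2.16 with the same spread, and was level with Fgfr3 at 0.01 (spread 1.02). Fgfr2 is not placed, because its probe sets lie on both sides of 0. Both Fgfr3 probe sets were below the filter with signals within the control range, so the differences from Fgfr3 rest on dim signal. The ligand pair differed more from each other than Fgf15 did from Fgfr1, a pair picked after its values were seen. The probe sets with marked names were 5 of the 6 receptor probe sets and 0 of the 2 ligand probe sets.

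**Figure D3:**
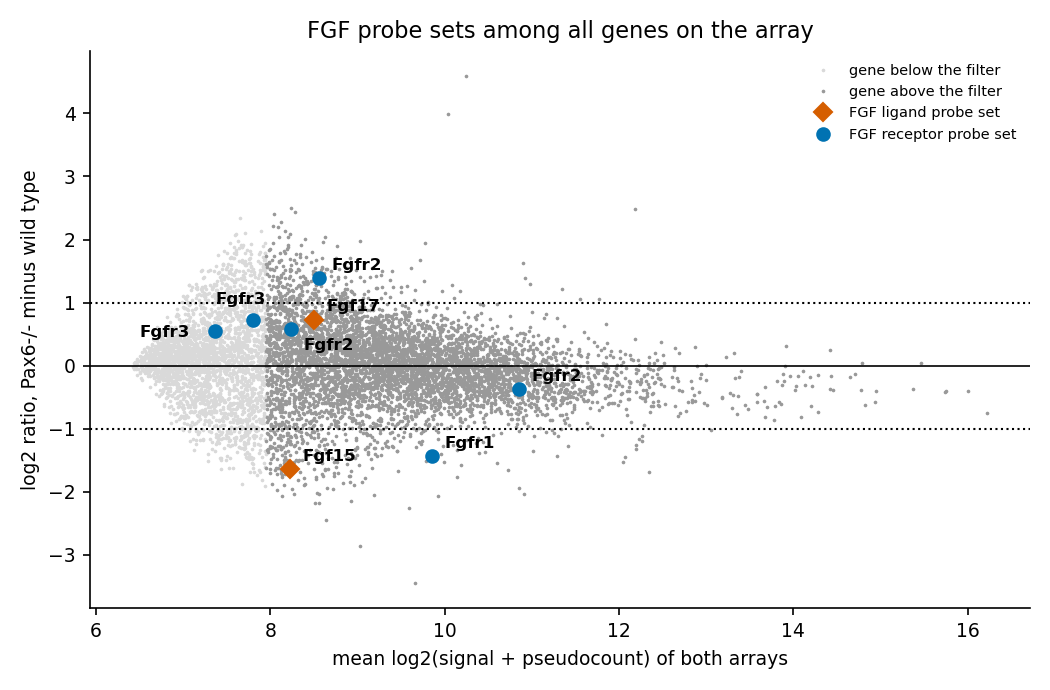
Log2 ratio against mean log2 signal for every gene on the array by its brightest probe set (grey, lighter below the filter), with all FGF ligand (diamonds) and receptor (circles) probe sets; dotted lines mark 2-fold. Few grey points at the signal of Fgfr1 are as low as its ratio, whereas Fgf15, Fgf17, Fgfr3 and the dimmer Fgfr2 probe sets lie where the grey points scatter widely.

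Most other FGF ligand genes gave too little signal to compare. Of 15 further ligand genes on the array, 3 were above the filter: Fgf4, an early embryonic ligand, at 0.45 (586 to 858), and Fgf11 and Fgf13, members of the intracellular subfamily that binds sodium channels rather than FGFRs, at 0.15 and −0.29. None of these 3 was past 2-fold, against 10.5% of all genes above the filter, and the median was 0.15. The 12 below the filter included Fgf8, the main rostral patterning ligand, with signals of 14.1 and 13.1, near the lower end of the control range in wild type and just below it in the mutant. Fgf18, of the same subfamily as Fgf8 and Fgf17, read 185 and 49.2, and Fgf9, a ligand expressed in the embryonic brain, read 242 and 53.2. Both were lower on the mutant array, at −1.07 and −1.31, with every signal within the control range, and are named after their values were seen. Because Fgf8 and Fgf18 were this dim and Fgf17 lay about 1 technical spread from 0, no common direction is given for their subfamily. Fgfr4, the further receptor gene with a probe set, was also below the filter, at 62.2 and 110.

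Genes on the list of FGF feedback and target genes showed no 2-fold difference, against a share of 10.5% over all genes above the filter. Not all of them are known to be induced by FGF signalling. Of 7 on the array, 6 were above the filter, 3 of them higher and 3 lower. Their median log2 ratio was 0.22 against −0.02 over all genes above the filter. The lower genes were Cnpy2 (−0.40), Ier2 (−0.11) and Etv4 (−0.03). The largest values were those of feedback inhibitors: Spry4, a Sprouty protein gene that dampens Ras-MAP kinase signalling, read 682 and 1070 (log2 ratio 0.55, technical spread 0.38), Spred2 read 268 and 425 (0.49, spread 0.72), and Dusp6, a phosphatase that inactivates ERK, read 138 and 234 (0.48, spread 0.72). Dusp6 passed the filter through the mutant array, and its second probe set, also at 0.48, was below the filter. Etv4, an ETS factor gene widely used as a readout of FGF activity, was bright and level, at 1299 and 1316 (−0.03), as was its second probe set at −0.01. The feedback inhibitors were on the higher side while Fgf15 and Fgfr1 were lower, and only Spry4 exceeded its technical spread. The mean signal of Spry4 lay only just above the bound of 828, below which the spread is 0.54, about the size of its ratio.

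Above the filter, the signalling chain below the receptors also held no 2-fold difference, against a share of 10.5% over all genes above the filter. With 14 genes, this is not read as a departure from that share. Of 23 genes on the array, 14 were above the filter, 6 higher and 8 lower, with a median of −0.08. At the ends of that range lay Rasa1, a Ras GTPase-activating protein gene, at 0.79 (331 to 656), Sos1, the exchange factor that activates Ras, at 0.79 (299 to 597), and the MAP kinase kinase gene Map2k2 at −0.66 (456 to 269). Grb2, the adaptor that links the receptor complex to Sos1, was level at 0.07. Plcg1, the phospholipase that binds activated FGFRs, was at 0.62 with a spread of 0.54. On the lower side, Akt1 was at −0.63 (2375 to 1559) with a spread of 0.38. Below the filter, and named after their values were seen, the phosphatase gene Ptpn11 read 17.1 and 317 and the PI3 kinase subunit gene Pik3r1 49.0 and 285, so their wild type signals lay within the control range.

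Co-receptors and heparan sulphate genes included 1 gene past 2-fold among the 15 above the filter, against 10.5% of all genes above the filter. Of 21 on the array, 15 were above the filter, 11 higher and 4 lower, with a median of 0.14. Hs2st1, the heparan sulphate 2-O-sulphotransferase gene, read 153 and 460, a log2 ratio of 1.16 (2.23-fold higher) against a spread of 0.72; its wild type signal lay below the filter level. Ndst2, an N-deacetylase and N-sulphotransferase, was at 0.85 by its brightest probe set and at −0.03 by the other. Among the core proteins, the syndecan gene Sdc3 was at −0.81 (478 to 249), with the glypican genes Gpc4 at −0.74 and Gpc1 at −0.55. In contrast, Gpc3 was at 0.02 and Hspg2 at 0.54. Agrn was at −0.12 by its brightest probe set and at −0.58 (1952 to 1320) by its other, also above the filter. All but Sdc3 were chosen after their values were seen. Gpc1 was bright, at 2696 and 1883, and lay beyond its spread of 0.38. Below the filter, Hs3st1, another heparan sulphate sulphotransferase gene, read 235 and 25.04, opposite in direction to Hs2st1, and was also named after its values were seen. The adhesion molecules Ncam1 and Cdh2, which can bind FGFRs, were level at 0.03 and 0.08, although the further Ncam1 probe sets gave 0.57 and −0.62.

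**Figure D4:**
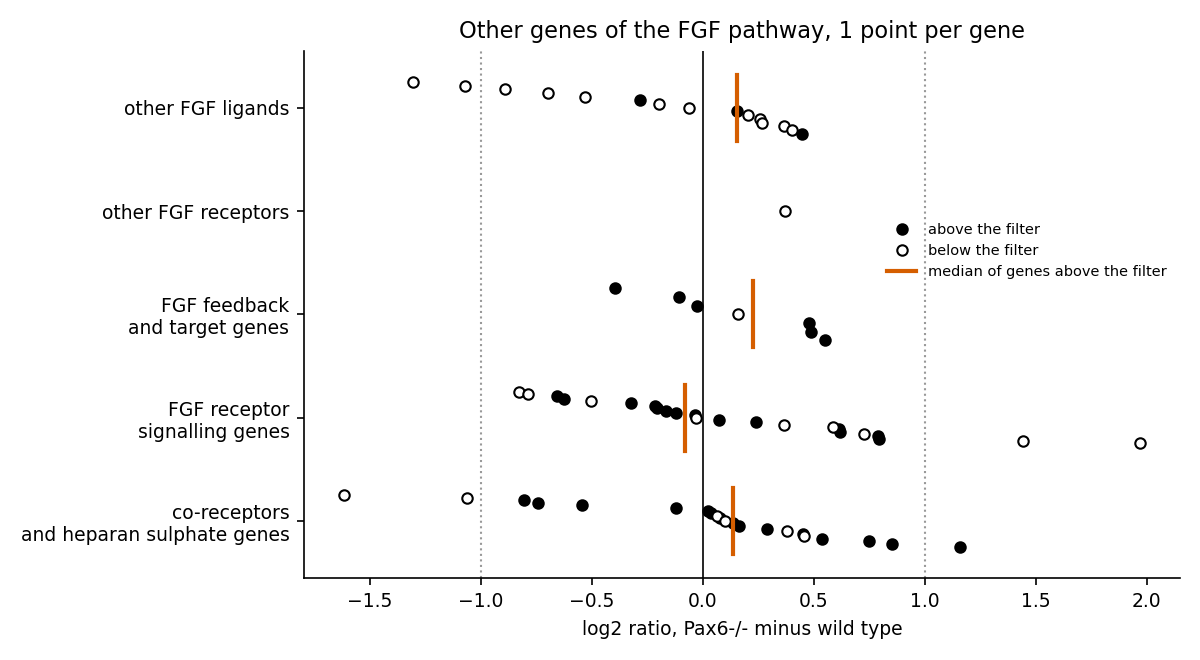
Log2 ratio (Pax6-/- minus wild type) of each further FGF pathway gene, 1 point per gene by its brightest probe set, filled above the signal filter and open below it; orange bars are medians of the filled points and dotted lines mark 2-fold. The medians lie between −0.08 and 0.22, and Hs2st1 at 1.16 is the only filled point past 2-fold. Over all genes above the filter, 10.5% were past 2-fold either way.

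By wild type and mutant log2 signal together, the genes nearest to Fgf15 among those above the filter were Saal1 (449 and 93.3), Btrc (452 and 95.4) and Tesk1 (457 and 87.5), at distances of 0.03 to 0.05. Those nearest to Fgf17 were Pou5f1 (197 and 383), Scg3 (200.3 and 403) and Gm20767 (188 and 398), at the same distances. With 2 arrays this likeness rests on 2 values per gene and says only that such pairs of signals were not particular to the FGF genes.

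The labels and the tissue were checked on the same arrays. Pax6, by 1 probe set, read 1169 and 447 (log2 ratio −1.29, spread 0.54); its position relative to the mutation was not examined, so it may not check the labels. Markers of the cells that express FGFRs moved with the genotype beside the FGF values. All 14 radial glia genes on the array were above the filter, 11 lower and 3 higher, with a median of −0.34 and a summed signal of 25764 (wild type) and 22517 (mutant). Aldoc was at −2.05 and Id4 at −1.66, while Sox2 was at 1.06 and Glul at 0.85 (−0.15 by its other probe set), both chosen after their values were seen. The neuron list had 9 of 10 lower and a median of −0.85 (summed signal 39524 and 29046). The intermediate progenitor list had 4 of 5 above the filter lower and a median of −1.43, or −0.72 over all 7 on the array. Eomes was at −3.44 by its brightest probe set and at −1.39 by its other. The subpallial list had 5 of 6 above the filter higher, with a median of 1.46 and summed signals of 1679 and 12467. Dlx1 was at 4.59 and Dlx2 at 3.99. Dlx1 (162 to 5982) and Dlx5 (113 to 699) passed the filter through the mutant array. Over all 9 subpallial genes on the array, 8 were higher and 1 lower, with a median of 0.88. The part of these shifts in the Fgf15 and Fgfr1 differences was not tested.

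Marker genes of other brain regions with FGF sources of their own were also read on these arrays of cerebral cortex RNA. Of 7 genes on the rostral midline and septum list, 4 were above the filter, 3 higher and 1 lower, with Zic1 at 1.22 (304 to 847). The lower gene was Nr2f1 at −0.70, a cortical patterning gene that does not mark the rostral midline. Nr2f1 alone gave 950 and 573 of the list's summed signal of 1955 and 2377. Of 7 isthmus and midbrain genes, 3 were above the filter and all 3 were higher, with a median of 0.36, Wnt1 at 0.65, En2 at 0.36 and a summed signal of 1120 and 1591. Of 4 diencephalic genes, 2 were above the filter and higher, with Lhx9 at 1.12 (85.1 to 291, so above the filter through the mutant array; its other probe set was at 0.25) and a summed signal of 983 and 1608. Over all 7 genes of the rostral list, filtered or not, 4 were higher and 3 lower, the latter being Fgf18, Fgf8 and Nr2f1. The medians of these 3 lists above the filter lay on the same side as Fgf17. Zic2 on the rostral list (143 to 252), like Lhx9, passed the filter through the mutant array, which tilts such medians to the higher side. Over all genes on the array, the medians were 0.40 (rostral), 0.36 (isthmus and midbrain) and 0.82 (diencephalon). The part of these regions in the Fgf17 value was not tested.

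Microglial genes leaned higher: 5 of 6 above the filter were higher, with a median of 0.58 and a summed signal of 1909 and 3723. Csf1r was at 1.54 and C1qb at 1.14 by their brightest probe sets, and at 0.34 and −0.93 by their others. Meningeal and mesenchymal genes, which include FGFR-expressing cells, were 5 higher and 3 lower of 8 above the filter, with a median of 0.35 and a summed signal of 6723 and 6848. Of the higher ones, Pdgfra, Foxc2 and Col1a1 passed the filter through the mutant array. Over all 12 meningeal and mesenchymal genes on the array, 7 were higher and 5 lower, with a median of 0.08. Endothelial and pericyte genes were 2 higher and 2 lower (median 0.39, summed signal 1923 and 2370), and red cell genes 3 and 3 (median 0.22, 16880 and 14699). The red cell genes Slc4a1 and Gata1 passed the filter through the mutant array. Over all 8 red cell genes on the array, 4 were higher and 4 lower, with a median of 0.004. Of 2 oligodendrocyte lineage genes, Sox10 was at −0.56 and Mbp at 0.09 (1060 and 907 summed), and of 4 choroid plexus genes 2 were above the filter and lower (1223 and 966 summed). As a gauge of dim signal, 18 genes of tissues outside the brain, such as those for protamines and digestive enzymes, had median signals of 101 (wild type) and 149.7 (mutant); 7 of them passed the filter, 6 higher and 1 lower, with a median of 0.46. Fgf17, the dimmer Fgfr2 probe sets and Fgfr3 lay on the same side as these genes, and the part of that lean in their values was not tested. No marker in any list was at the file's minimum of 1.0.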

How the data were processed

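The submitters' processing notes name MAS5, Affymetrix's signal algorithm, with no version, scaling target or detection calls. The authors' deposited values are signal intensities on a linear scale for 1 wild type and 1 Pax6-/- array, and their 2% trimmed mean was 500.2 on both. GEO's platform annotation gave 1 symbol for 10855 of 12488 probe sets, several for 396 and none for 1237; 10839 had a gene ID in the RefSeq table of GRCm38.p6. The 66 Affymetrix controls represented no gene.

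Log2 ratios (pseudocount at the 25th percentile, filter at the 40th percentile of mean log2 signal, median centring), the technical spread between probe sets and list medians were computed here. The probe set brightest on average stands for its gene. Named are all member probe sets, pathway list genes above the filter past 2-fold or the 3 farthest from 0, up to 2 genes per cell type list, and the 3 genes nearest to each ligand. Further list genes named, such as Etv4, Grb2, Plcg1, Akt1, Ncam1 and Cdh2, fall outside that rule and were chosen after their values were seen. The members and lists were chosen with earlier results of these data known. The steps were tested on simulated data. The number of arrays limits the precision. Python 3.11.15, numpy 2.4.6, pandas 2.3.3, statsmodels 0.14.6 and matplotlib 3.10.9 were used.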

Additional observations from a re-analysis of the deposited data

How the results depend on the processing

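Each result was recomputed without centring, with quantile or loess scaling (fraction 0.4, 3 iterations), with no pseudocount (floor at the 1st percentile) or one at the 50th percentile, and with probe sets averaged per gene or only probe sets without a suffix; counts and list medians also with no signal filter or one at the 60th percentile, and counts at 1.5-fold and 3-fold. Fgf15, Fgf17, Fgfr1 and Fgfr3 kept their direction and stayed within 1 technical spread in all of these that measured them. Fgfr1 and Fgfr3 have no probe set without a suffix and so no value there. Fgf15 and Fgf17 have a single probe set, so the 2 probe set rules could not change their values. The same holds for Fgfr1 with averaging and for Fgfr2 with only probe sets without a suffix. Fgfr3 passed 2-fold with no pseudocount, at 1.17. Fgfr2 moved to 0.53 with the mean of its probe sets. All 36 recomputed list medians moved by less than the error of a median given by the technical spread, although 4 of them turned sign: feedback genes with the mean of probe sets (−0.02), signalling genes with the mean of probe sets (0.07) and the 60th-percentile filter (0.03), and other ligands with no filter (−0.11). The counts of genes at least 2-fold higher, 282, and lower, 306, moved to 90 and 128 with the 50th-percentile pseudocount, 498 and 526 with no filter, 97 and 114 with the 60th-percentile filter, 785 and 844 at 1.5-fold, and 58 and 68 at 3-fold; with no pseudocount 447 were higher. After loess scaling the split was 210 higher and 365 lower. Of 91 recomputed values, 79 kept their place, a count that includes those that could not change. No paired analysis was possible because each genotype has 1 array and the labels give no replicate numbers.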
